A study of Mus musculus with 12 samples.

Results

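The Hox genes of the mouse were followed through 12 RNA sequencing libraries of distal ileal tissue. Members were the rows of the deposited gene table named Hox, a cluster letter from a to d and a number, with antisense and opposite-strand names left out. The rule found 39 genes among the 45808 rows of the table, which is the full set of 4 clusters as GENCODE M21 annotates them. At least 1 read was recorded for 33 of them, 18 had reads in every library, and 16 reached the mean of 10 normalized counts at which genes were tested, as 15025 rows of the table did. The libraries were 6 from BALB/c mice treated with Porphyromonas gingivalis, an oral bacterium associated with periodontitis, and 6 from BALB/c mice given phosphate-buffered saline (PBS) as the control. All 12 carry the same tissue label, and the series title asks how the bacterium affects inflammation of the intestine. The route, dose and duration were not given in the sources used here, and no label ties a library to its own mouse. P-values here thus measure only the spread between these samples, which may be technical. The P. gingivalis libraries held 6553306 to 9875045 recovered reads and the PBS libraries held 7610970 to 10378841.

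Hox genes encode homeodomain transcription factors that give cells of the embryo their position along the head to tail axis. Within each cluster the genes lie in the order in which they are used along the body: genes with low paralog numbers start near the head, and genes with high numbers are restricted to the rear. In the adult intestine most Hox RNA is found in the muscle and connective tissue of the wall, and parts of the gut keep different Hox combinations after development. The partners of Hox proteins on DNA are the TALE homeodomain proteins of the Pbx and Meis families, and the caudal factors Cdx1 and Cdx2, retinoic acid and the Polycomb and trithorax complexes act on the clusters.

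Some libraries went against the shared tissue label, and the Hox values have to be read beside that. Fabp6, the bile acid binding protein that marks ileal absorptive cells, stood at 2.52 and 16.0 normalized counts in P. gingivalis replicates 1 and 5 and at 4.32 in PBS replicate 6, against at least 11246 in the other 9 libraries. P. gingivalis replicate 6 had 15621 Fabp6 counts, but it was at 0.870 for Lct, the lactase of the upper small intestine, and at 0 for Gata4, a transcription factor of the upper small intestine. The other 11 libraries had 748 to 27629 counts of Lct and 67.1 to 655 of Gata4. Replicate 6 was also at 498 for Car1, a carbonic anhydrase of the large bowel, against at most 2.71 elsewhere, and it held all 9 reads of Retnlb, a goblet cell protein of the large bowel. The position along the gut at which each piece of tissue was taken is not in the labels, so libraries were not grouped by it. In whole tissue, fewer cells of a type and less RNA per cell cannot be told apart.

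Hox RNA was sparse in these libraries and came mainly from the middle of the clusters. In all, 5679 reads fell on the 39 genes, 1141 of them on cluster a (chromosome 6), 2401 on cluster b (chromosome 11, 96194316 to 96368256 on GRCm38), 1678 on cluster c (chromosome 15, 102921103 to 103036852) and 459 on cluster d (chromosome 2, 74668310 to 74765142). P. gingivalis replicate 6 alone gave 851 of the 2401 reads of cluster b. Paralog groups 1 to 4 held 1995 reads, groups 5 to 8 held 3249 and groups 9 to 13 held 435. Per kilobase of exon, the highest levels averaged over the 12 libraries were those of Hoxc8 at 16.8 normalized counts, Hoxc6 and Hoxb6 at 16.7 each, Hoxb7 at 16.2, Hoxb4 at 14.8 and Hoxa5 at 12.98. These 6 levels lie close together beside the spread of each gene over libraries. Without P. gingivalis replicate 6, Hoxb6 averaged 9.95 and Hoxb7 averaged 11.9 over the other 11 libraries, behind Hoxc8 at 15.8, Hoxc6 at 15.7, Hoxb4 at 13.3 and Hoxa5 at 12.3. No read was recorded for Hoxa13, Hoxc11, Hoxc12, Hoxc13, Hoxd11 and Hoxd12, all of the rear end of the clusters. A count of 0 allows up to 3 reads in a library, which is between 2.14 and 3.78 normalized counts, so low expression of these genes was not detectable at this depth.

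**Figure D1:**
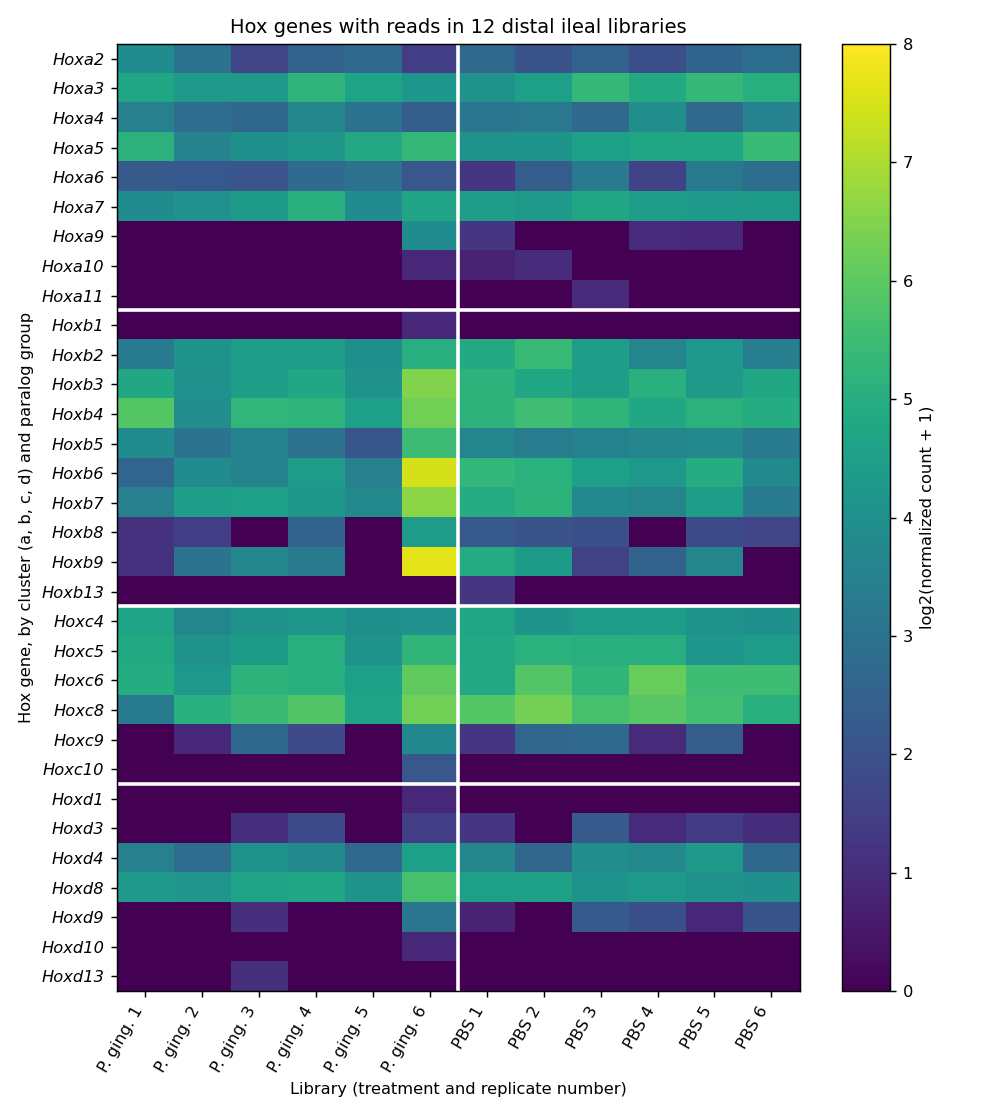
Colour gives log2(normalized count + 1) of Hox genes with reads (rows, by cluster and paralog group) in the 6 P. gingivalis and 6 PBS libraries (columns); white lines part the clusters and the groups. The middle rows of clusters b and c are bright in most libraries, rows of paralog groups 9 to 13 are dark, and P. gingivalis replicate 6 is brightest at Hoxb9 with 202 normalized counts and Hoxb6 with 177.

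The genes of cluster a had similar ranges in both groups. Hoxa3, which shapes the thymus and parathyroid glands, had 17.4, 21.5 and 35.9 normalized counts as lowest, median and highest value in P. gingivalis libraries, against 16.4, 30.6 and 39.3 in PBS libraries. Hoxa5, needed for normal development of the lung and of the gut lining in mice, had 10.8, 22.7 and 39.1 counts in P. gingivalis libraries, against 16.4, 23.4 and 41.0 in PBS libraries. Hoxa7, a gene of the chest skeleton, had 13.7, 17.5 and 31.1 counts in P. gingivalis libraries, against 18.7, 20.1 and 25.6 in PBS libraries. The groups overlapped over most of their range for all 3 genes. The log2 differences, P. gingivalis minus PBS, were -0.31 (standard error, SE, 0.24) for Hoxa3, -0.09 (SE 0.31) for Hoxa5 and -0.13 (SE 0.21) for Hoxa7. Exons of the antisense gene Hoxaas3 overlap 20.4% of the exon bases of Hoxa7, so its value is uncertain. Hoxa3 is overlapped by several annotated genes, among them Hoxaas2 over 8.36% of its exon bases and Gm28308 over 8.01%. The summed level of the cluster averaged 89.0 ± 20.1 in P. gingivalis libraries and 98.4 ± 18.3 in PBS libraries (SD, n = 6 each).

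The other front genes of cluster a stayed below the test's minimum. Hoxa2, the selector gene of a pharyngeal arch, had 1.74 to 13.9 counts in P. gingivalis libraries, against 2.88 to 6.48 in PBS libraries. Hoxa4, a gene of the neck vertebrae, had 4.35 to 11.96 counts in P. gingivalis libraries, against 5.68 to 14.4 in PBS libraries. Hoxa6, a gene of the trunk skeleton, had 3.29 to 6.86 counts in P. gingivalis libraries, against 1.43 to 8.52 in PBS libraries. For these 3 genes the groups overlapped, and none was tested.

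Cluster b held the Hox genes that differed most between libraries. Hoxb9, a gene of the chest skeleton and, with its paralogs, of the mammary gland, lies on chromosome 11 from 96271457 to 96276595 on the forward strand. It had 1.26, 7.23, 12.1, 8.37, 0 and 202 normalized counts in P. gingivalis replicates 1 to 6, against 29.3, 19.7, 1.89, 4.81, 11.7 and 0 in PBS replicates 1 to 6. A single library, P. gingivalis replicate 6 with 232 reads, stood far above the rest, while the other 5 P. gingivalis libraries lay within the PBS range. The mean was 38.5 ± 80.2 in P. gingivalis libraries and 11.2 ± 11.4 in PBS libraries (SD, n = 6 each), and without replicate 6 the P. gingivalis mean was 5.78. The log2 difference was 0.30 (SE 1.14), with the widest error of the 16 genes tested.

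Hoxb6 and Hoxb7 followed the same libraries. Hoxb6, a gene of the mesoderm of the flank, had 5.04, 13.6, 10.96, 20.3, 10.3 and 177 counts in P. gingivalis replicates 1 to 6, against 38.6, 33.2, 21.8, 18.3, 30.1 and 12.96 in PBS replicates 1 to 6. Hoxb7, a gene of the kidney duct, had 10.1, 20.8, 21.9, 17.9, 12.6 and 97.4 counts in P. gingivalis replicates 1 to 6, against 29.99, 35.3, 13.3, 11.5, 20.9 and 8.64 in PBS replicates 1 to 6. In both genes P. gingivalis replicate 6 was highest and PBS replicates 1 and 2 came next. The log2 difference was -0.42 (SE 0.63) for Hoxb6 and 0.29 (SE 0.49) for Hoxb7. Hoxb8, a gene of blood precursors and of the lower spinal cord, lies between Hoxb7 and Hoxb9 and averaged less than both. It had 1.26, 1.81, 0, 4.78, 0 and 20.01 counts in P. gingivalis replicates 1 to 6, against 3.57, 3.11, 2.84, 0, 2.51 and 2.16 in PBS replicates 1 to 6. Its 46 reads kept it below the test's minimum, and 23 of them came from P. gingivalis replicate 6.

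Toward the front of cluster b the medians of the groups lay close together. Hoxb5, which acts in lung branching and in precursors of enteric neurons, had 3.43, 9.10 and 43.5 counts as lowest, median and highest value in P. gingivalis libraries, against 8.64, 10.9 and 12.5 in PBS libraries. Hoxb4, known from the self-renewal of blood stem cells, had 14.5, 36.6 and 78.3 counts in P. gingivalis libraries, against 26.9, 34.6 and 45.7 in PBS libraries. Hoxb3, a gene of the hindbrain and neck, had 15.4, 23.6 and 88.7 counts in P. gingivalis libraries, against 19.2, 26.4 and 35.0 in PBS libraries. In these 3 genes the highest P. gingivalis library was replicate 6, and the other 5 overlapped the PBS libraries. The log2 difference was -0.00 (SE 0.43) for Hoxb5, 0.04 (SE 0.33) for Hoxb4 and 0.00 (SE 0.35) for Hoxb3. Hoxb2, a hindbrain gene, had 8.82, 18.5 and 32.2 counts in P. gingivalis libraries, against 9.72, 19.6 and 41.5 in PBS libraries, a log2 difference of -0.12 (SE 0.36). It was highest in PBS replicate 2. Hoxb1, a gene of a single hindbrain segment, had 1 read, in P. gingivalis replicate 6. Exons of Hoxb3os, an annotated antisense gene, overlap 52.9% of the exon bases of Hoxb3 and 27.3% of those of Hoxb2, and the strand setting of the counting is not given, so both genes are uncertain. Exons of no other annotated gene overlap those of Hoxb6, Hoxb7, Hoxb8 and Hoxb9.

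**Figure D2:**
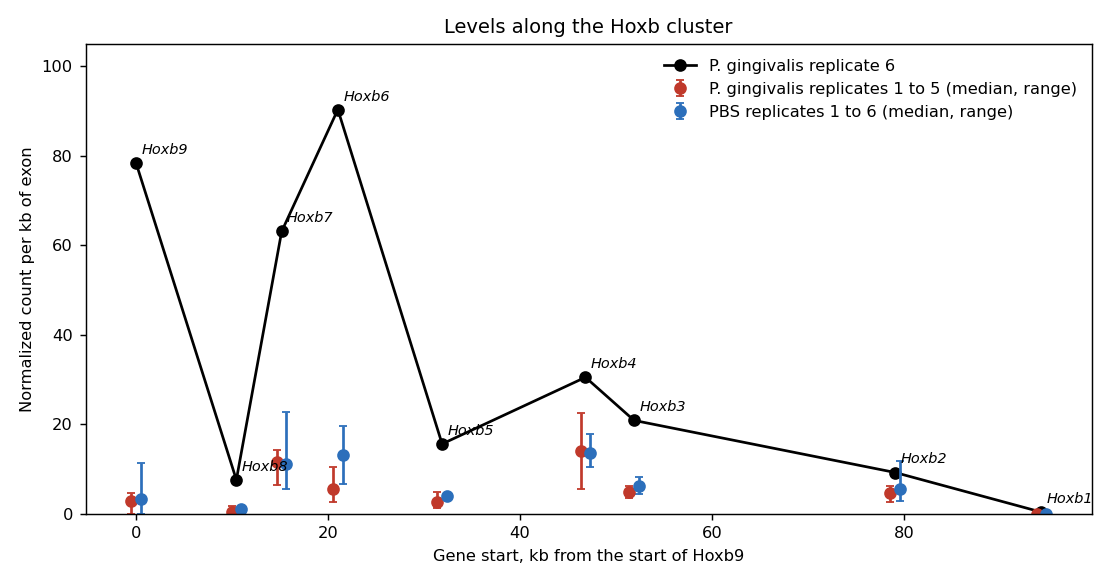
Normalized count per kilobase of exon (vertical axis) of the genes of cluster b against the distance of their start from that of Hoxb9 (horizontal axis, kb), for P. gingivalis replicate 6 (line), the other 5 P. gingivalis libraries and the 6 PBS libraries (points, median; bars, range). Replicate 6 lies above both ranges from Hoxb9 to Hoxb3, at 90.4 for Hoxb6 and 78.4 for Hoxb9, and inside the PBS range at Hoxb2.

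Cluster c held the genes that lay nearest to a difference between the groups. Hoxc8, which patterns chest vertebrae and spinal motor neurons, had 8.82, 32.5, 42.7, 56.2, 24.0 and 78.3 counts in P. gingivalis replicates 1 to 6, against 57.8, 79.9, 50.2, 59.6, 47.6 and 32.4 in PBS replicates 1 to 6. Hoxc6, a gene of the same region, had 30.3, 18.1, 35.1, 32.3, 21.7 and 65.2 counts in P. gingivalis replicates 1 to 6, against 27.1, 57.1, 36.9, 69.2, 45.1 and 44.3 in PBS replicates 1 to 6. In both genes most P. gingivalis libraries lay low in the PBS range or below it, and replicate 6 lay high in it. Hoxc8 averaged 40.4 ± 24.6 in P. gingivalis libraries and 54.6 ± 15.7 in PBS libraries, a log2 difference of -0.65 (SE 0.41), with SD and n = 6 each. Hoxc6 averaged 33.8 ± 16.7 in P. gingivalis libraries and 46.6 ± 14.8 in PBS libraries, a difference of -0.51 (SE 0.29). Neither passed the test by limma, with an unadjusted p of 0.136 for Hoxc8 and 0.0962 for Hoxc6 and an adjusted p of 0.992 for both.

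The other genes of cluster c differed by less. Hoxc5, a gene of the neck region, had 16.0, 23.7 and 36.5 counts as lowest, median and highest value in P. gingivalis libraries, against 17.6, 29.2 and 33.2 in PBS libraries. Hoxc4, a gene of the neck and upper trunk, had 11.8, 16.0 and 23.9 counts in P. gingivalis libraries, against 15.1, 18.2 and 24.99 in PBS libraries. The ranges covered each other almost fully, with log2 differences of -0.15 (SE 0.24) for Hoxc5 and -0.18 (SE 0.20) for Hoxc4. Hoxc5 shares 166 exon bases with Hoxc10 on the same strand, which leaves reads in that stretch uncertain. Summed over the cluster, levels averaged 120 ± 51.3 in P. gingivalis libraries and 150 ± 31.0 in PBS libraries (SD, n = 6 each), and both groups reached similar highest values, 211 in P. gingivalis replicate 6 and 192 in PBS replicate 2.

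Cluster d was the weakest of the 4. Hoxd8, a gene of the lower trunk, had 16.0, 21.5 and 49.6 counts as lowest, median and highest value in P. gingivalis libraries, against 15.1, 17.2 and 22.8 in PBS libraries, a log2 difference of 0.34 (SE 0.25; limma, unadjusted p = 0.195, adjusted p = 0.992). Hoxd4, which patterns the upper neck vertebrae, had 5.72, 11.6 and 21.7 counts in P. gingivalis libraries, against 5.19, 12.3 and 19.2 in PBS libraries, a difference of 0.08 (SE 0.38). Replicate 6 was the highest of the 12 libraries for both genes, and otherwise the groups overlapped. Hoxd3, a gene of the neck, had 0 to 2.39 counts in P. gingivalis libraries, against 0 to 3.79 in PBS libraries. Hoxd1, a gene of pain-sensing neurons, had 1 read, in P. gingivalis replicate 6. Hoxd3 and Hoxd4 share 388 exon bases with each other, and Gm28230, on the same strand, covers 53.1% of the exon bases of Hoxd3 and 39.1% of those of Hoxd4, so their values are uncertain.

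The rear paralog groups had few reads outside 1 library. The 11 libraries other than P. gingivalis replicate 6 held 158 of the 435 reads of groups 9 to 13, with the most, 49, in PBS replicate 1. All 4 genes of paralog group 9 were highest in P. gingivalis replicate 6, which held 271 of their 423 reads. Hoxa9, a gene of blood precursors and the lower trunk, had 13.9 counts in that library and 0 in the other 5 P. gingivalis libraries, against 0 to 1.43 in PBS libraries. Hoxc9, which sets chest motor neuron identity, had 12.2 counts in that library and 0 to 5.48 in replicates 1 to 5, against 0 to 5.68 in PBS libraries. Hoxd9, a gene of the lower trunk and hindlimb, had 7.83 counts in that library and 0 to 1.10 in replicates 1 to 5, against 0 to 3.79 in PBS libraries. The counts behind these values are small. For Hoxa9 the ratio of replicate 6 to the next library was 9.75 from 16 and 2 reads, with an exact 95% counting interval from 2.29 to 87.4. For Hoxc9 it was 2.14 (0.774 to 6.81) and for Hoxd9 it was 2.07 (0.577 to 9.19), both intervals reaching below 1.

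Beyond group 9, 12 reads fell on 6 of 12 genes. Hoxc10, a gene of lumbar motor neurons, had 4 reads, all in P. gingivalis replicate 6, and 166 of its exon bases are shared with Hoxc5. Hoxd10, also of the lumbar cord, had 1 read in the same library. Hoxa10, a gene of the uterus and lumbar vertebrae, had 3 reads in 3 libraries, P. gingivalis replicate 6 and PBS replicates 1 and 2. Hoxb13, a gene of the prostate and large bowel that lies 74.0 kb from Hoxb9, had 2 reads, both in PBS replicate 1. Hoxa11, a gene of the limbs and uterus, had 1 read, in PBS replicate 3, with 35.0% of its exon bases under the antisense gene Hoxa11os. Hoxd13, which acts with Hoxa13 in the hindgut, had 1 read, in P. gingivalis replicate 3. These counts are at or below the 3 reads that a count of 0 allows, except for Hoxc10 with 4 reads, and no order was read from them. Summed over groups 9 to 13, P. gingivalis libraries had 1.26, 8.14, 19.7, 10.8, 0 and 241 counts in replicates 1 to 6, against 35.0, 25.9, 12.3, 9.62, 17.6 and 3.24 in PBS replicates 1 to 6. Replicate 6 stood 6.89 times above the next library, and P. gingivalis replicate 5 had no read on any of the 16 genes. Hoxb9 alone gave 202 of the 241 counts in replicate 6. With Hoxb9 left out, the sum there was 39.1 counts, which is 3.76 times the 10.4 of the highest other library.

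No Hox gene separated the treatment groups. Limma with Benjamini-Hochberg adjustment over the 15025 genes called 0 of the 16 tested Hox genes, and it called 0.0% of all genes. For 0 of 16 did the 6 P. gingivalis values lie all above or all below the 6 PBS values, against 0.166% of all genes tested. None reached an unadjusted p under 0.05, against 3.73% of all genes tested. Of the 16 differences 6 were positive and 10 negative, with a median of -0.10 on the log2 scale, beside -0.00 over all genes tested. Adjusted p-values from limma were all at least 0.992. On the recovered reads, edgeR called 0 of 15 Hox genes, against 0% of all genes, and DESeq2 called 0 of 20, against 0.181% of all genes. By unadjusted p under 0.05 there were 0 of 15 in edgeR, against 3.64% of all genes, and 1 of 31 in DESeq2, against 2.58%. Hoxb9 did not pass the filter of edgeR, and DESeq2 gave no p for Hoxb6 and Hoxb9. The precision was low: the median SE of the log2 difference was 0.34 for the Hox genes, against 0.25 for all tested genes with a mean under 50 and 0.15 for all genes tested.

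**Figure D3:**
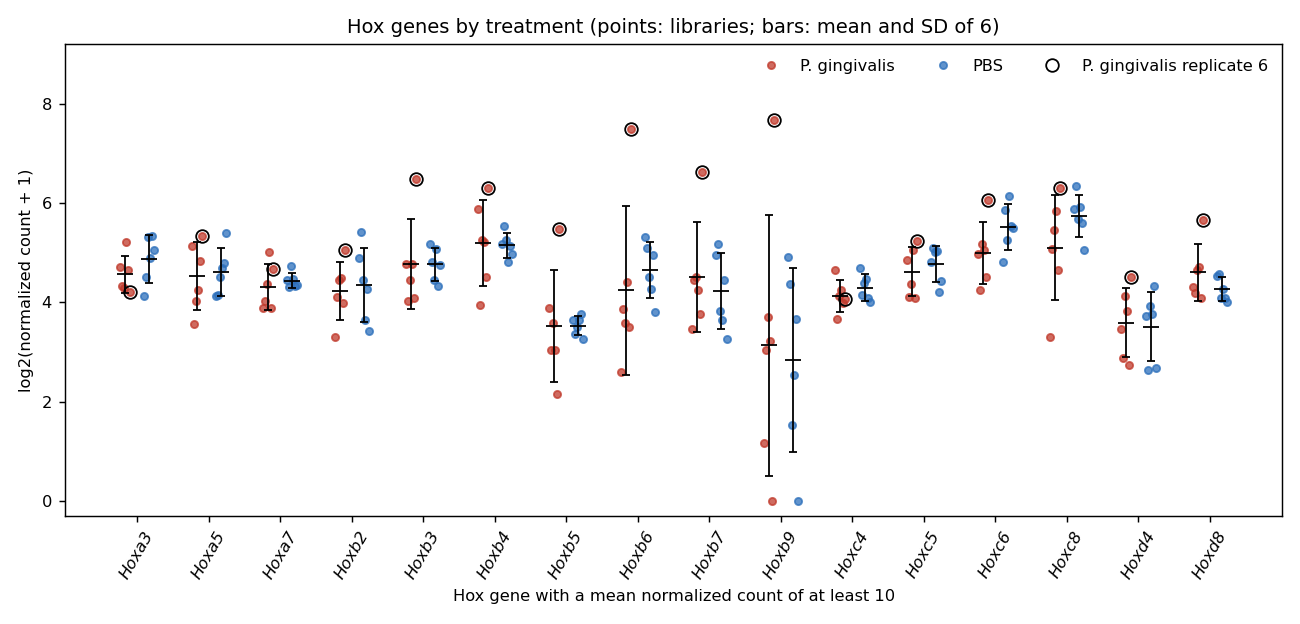
Log2(normalized count + 1) of the 16 tested Hox genes in P. gingivalis (left of each pair) and PBS libraries; points are libraries, horizontal lines and bars the mean and SD of 6, and rings mark P. gingivalis replicate 6. Points of the groups overlap for every gene, and the ringed point lies at the top for Hoxb3, Hoxb4, Hoxb5, Hoxb6, Hoxb7, Hoxb9, Hoxc5, Hoxd4 and Hoxd8.

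A single library set several of these values. Without P. gingivalis replicate 6, Hoxb5 and Hoxb9 fell below the mean of 10 and 14 Hox genes were tested, of which 13 differences were negative. The library left out was the highest of the 12 for 7 of these 14 genes, so their P. gingivalis means fall without it. The share of negative differences over all genes was not computed for this fit. Hoxb6 then averaged 12.03 in P. gingivalis libraries, against 25.8 in PBS libraries, and its log2 difference was -1.07 (SE 0.34). Hoxc6 differed by -0.72 (SE 0.24) and Hoxc8 by -0.89 (SE 0.38). These 3 of 14 Hox genes had an unadjusted p under 0.05, against 8.34% of all genes tested without that library. Limma adjusted p-values were 0.345 for Hoxb6, 0.389 for Hoxc6 and 0.551 for Hoxc8, so none was called there either. In the fit of all 12 libraries, differences of some tissues of the gut wall were negative, and those of others were mixed. In that fit 6 Hox differences were positive and 10 negative, and 7351 of all 15025 genes tested had a positive difference. Over all 12 libraries, the 12 genes of a smooth muscle list each had a negative difference, with a median of -0.52, and their summed level ran from 13765 to 43530 counts in P. gingivalis libraries, against 21205 to 34899 in PBS libraries. Mesothelial genes, which mark the outer lining of the gut, were negative for all 4 tested of 6 listed, with a median of -1.35. Their sum ran from 45.4 to 102 counts in P. gingivalis libraries, against 127 to 282 in PBS libraries. The groups thus did not overlap in this sum. Among single genes, 25 of 15025 (0.166%) were separated in this way. Such a share was not computed for sums of lists, and this list was picked with earlier results known. The 7 fat cell genes were negative too, with a median of -4.38 and sums of 448 to 2299 counts in P. gingivalis libraries, against 1549 to 6833 in PBS libraries. No gene of these 3 lists was called. Fibroblast genes had 5 positive and 7 negative differences, with a median of -0.06. Endothelial genes had 6 positive and 2 negative, with a median of 0.08. Enteric neuron genes had 1 positive and 9 negative, genes of interstitial cells of Cajal 1 and 3, and glial genes 1 and 2. The part of any of these lists in the Hox values was not tested.

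P. gingivalis replicate 6 stood apart along most of cluster b and at Hoxa9. It was the highest of the 12 libraries for 9 of the 16 tested Hox genes, against 18.3% of all genes tested, and for 17 of the 33 Hox genes with reads, against 15.2% of all genes with reads. It was at least 2 times the next library for 5 of 16, namely Hoxb3, Hoxb5, Hoxb6, Hoxb7 and Hoxb9, against 0.18% of all genes tested. Hoxb5 and Hoxb9 reached the mean of 10 only through this library. Hoxb1, Hoxc10, Hoxd1 and Hoxd10 are among the 17 and had reads only in this library, so they could be highest nowhere else. Among genes with a mean of at least 10 over the other 11 libraries, it was highest for 7 of 14 Hox genes, against 18% of all such genes, and at least 2 times the next for 3 of 14, namely Hoxb3, Hoxb6 and Hoxb7, against 0.12%. These shares were computed after the values were known, and the 5 genes are neighbours in 1 cluster. The ratio to the highest other library was 6.89 for Hoxb9 (exact 95% counting interval 4.93 to 9.86), 4.60 for Hoxb6 (3.39 to 6.33), 4.18 for Hoxb8 (1.43 to 16.6) and 3.14 for Hoxb5 (1.61 to 6.68). It was 2.76 for Hoxb7 (1.87 to 4.18) and 2.54 for Hoxb3 (1.79 to 3.64). These intervals cover counting error only.

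The ratio was on the whole higher toward the rear up to group 9, with many exceptions. In cluster a it was 0.125 for Hoxa2, 0.443 for Hoxa3, 0.302 for Hoxa4, 0.954 for Hoxa5, 0.408 for Hoxa6, 0.783 for Hoxa7 and 9.75 for Hoxa9, so Hoxa5 stood above both genes that follow it. In cluster b it was 0.775 for Hoxb2, 2.54 for Hoxb3, 1.35 for Hoxb4, 3.14 for Hoxb5, 4.60 for Hoxb6, 2.76 for Hoxb7, 4.18 for Hoxb8 and 6.89 for Hoxb9. In cluster c it was 0.627 for Hoxc4, 1.10 for Hoxc5, 0.942 for Hoxc6, 0.980 for Hoxc8 and 2.14 for Hoxc9. In cluster d it was 0.459 for Hoxd3, 1.13 for Hoxd4, 1.97 for Hoxd8 and 2.07 for Hoxd9. Behind group 9 the library did not stand above the rest throughout, with 0.838 for Hoxa10 and no read of Hoxb13, and the counts there are too few for an order. In groups 2 to 8 the gene of cluster b had the highest ratio of its group, and in group 9 Hoxa9 had it, from few reads. The order along the clusters was not tested, as it was seen in 1 library.

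**Figure D4:**
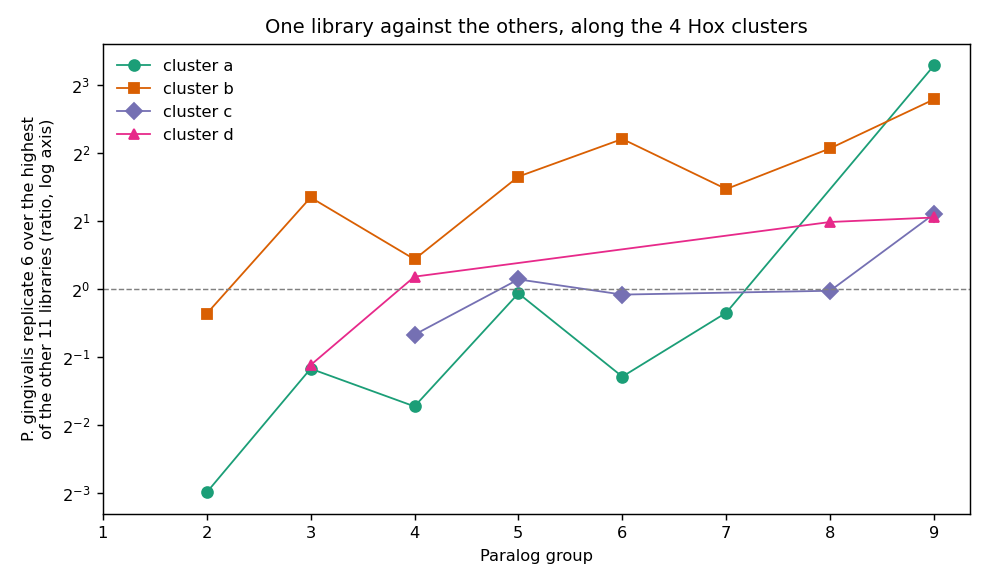
Ratio of the normalized count in P. gingivalis replicate 6 to the highest of the other 11 libraries (vertical axis, log scale) for Hox genes with at least 15 reads by paralog group (horizontal axis), with 1 line per cluster; the dashed line marks equal values. Points run from 0.125 for Hoxa2 to 9.75 for Hoxa9, and those of cluster b lie above the line from group 3 on.

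The balance between clusters in that library differed as well. Cluster b held 64.9% of its Hox counts, against 27.1% to 46.0% in the other 11 libraries, and paralog groups 9 to 13 held 21.1%, against 0% to 7.56%. Most of the latter was Hoxb9: the other genes of groups 9 to 13 held 3.43%, against 0% to 2.47%. Groups 1 to 4 held 23.2%, against 33.8% to 51.3%. Summed over all 39 genes, P. gingivalis libraries averaged 469 ± 336 counts and PBS libraries 435 ± 51.8 (SD, n = 6 each), and without replicate 6 the P. gingivalis mean was 334 ± 72.8 (SD, n = 5). Cluster a was not raised there: its sum was 107 counts in replicate 6, against 120 in the highest other library, PBS replicate 6. Per kilobase of exon, Hoxb6, Hoxb9 and Hoxb7 were the first 3 Hox genes in replicate 6, at 90.4, 78.4 and 63.1 counts, while Hoxb9 ranked 19 by its median over the other 11 libraries, at 2.81 counts per kilobase.

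Hoxb9 ran against lactase from library to library. In order of increasing Lct, from 0.870 in P. gingivalis replicate 6 through 748 and 923 in PBS replicates 1 and 2 to 4465 in PBS replicate 5, Hoxb9 stood at 202, 29.3, 19.7 and 11.7 counts. The next 5 libraries had Lct between 4709 and 9933 and Hoxb9 between 1.89 and 12.1. The 3 libraries with the most Lct were P. gingivalis replicate 1 with 18205, PBS replicate 6 with 22535 and P. gingivalis replicate 5 with 27629, and they held 1, 0 and 0 reads of Hoxb9. They are the same 3 libraries in which Fabp6 was nearly absent. The order ran through both treatment groups, so libraries of 1 group lay at both ends of it. No coefficient is given, because the libraries fall into separate clusters. Hoxc8 was lowest in P. gingivalis replicate 1 at 8.82 counts, and Hoxa5 was highest in PBS replicate 6 at 41.0, followed by P. gingivalis replicates 6 and 1 at 39.1 and 34.0, so Hoxa5 did not follow this order.

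**Figure D5:**
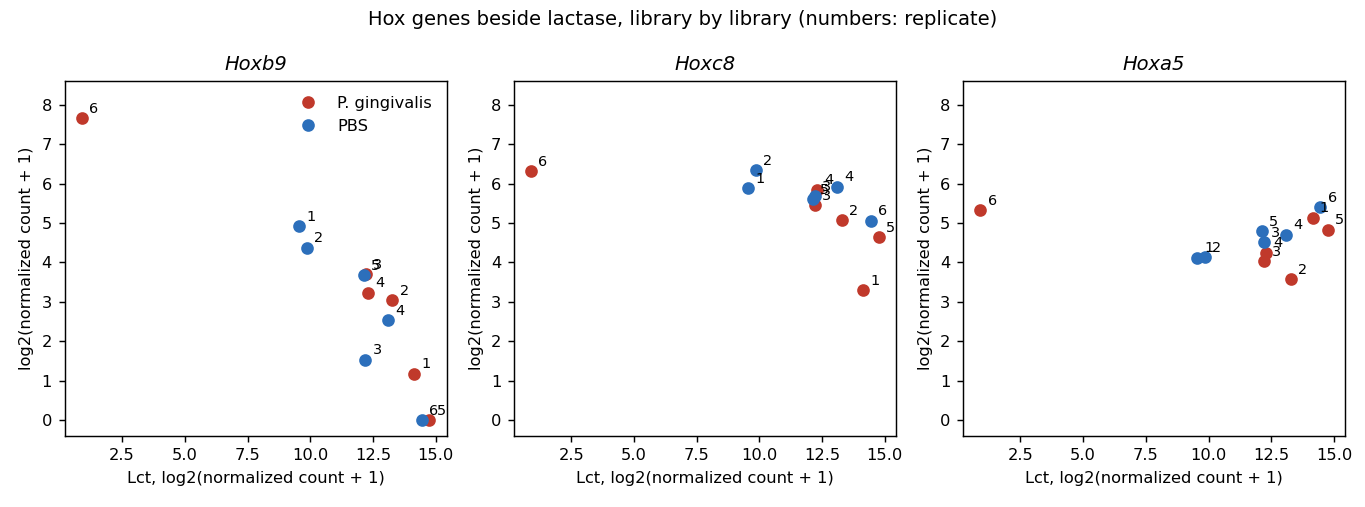
Log2(normalized count + 1) of Hoxb9, Hoxc8 and Hoxa5 (vertical axes) against that of Lct (horizontal axes) in the 12 libraries, P. gingivalis in red and PBS in blue, with replicate numbers. Hoxb9 descends from 202 counts where Lct is 0.870 to 0 where Lct is 22535 and 27629; Hoxa5 shows no such descent.

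A neighbour of Hoxb9 was, like Hoxb9, highest in P. gingivalis replicate 6, followed by PBS replicates 1 and 2. Gm53, a long intergenic RNA on chromosome 11 from 96251105 to 96264868 that ends 6.59 kb before Hoxb9 on the same strand, had 0, 9.94, 8.77, 3.59, 1.14 and 240 counts in P. gingivalis replicates 1 to 6, against 42.1, 32.2, 0.947, 3.85, 5.85 and 0 in PBS replicates 1 to 6. Its ratio of replicate 6 to the next library, PBS replicate 1, was 5.70 (exact 95% counting interval 4.29 to 7.68). The row of Mir196a-1, which begins 296 bases after Gm53 at 96265164, held 22 reads in P. gingivalis replicate 6 and 3, 1 and 2 reads in PBS replicates 1, 2 and 5, with 0 in the other 8 libraries. Both were chosen after their values were seen. Reads on this row come from polyadenylated RNA over the gene and do not measure the mature microRNA.

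MicroRNAs of the Hox clusters are shown because several Hox messages carry matches to the seed of miR-196. Matches to miR-10 were not searched. Sequences are those of RefSeq on GRCm38.p6, 5′ to 3′, with the seed (bases 2 to 8) in capitals. The pair of miR-196 sequences share a seed, as do the pair of miR-10 sequences.
miR-196a-5p: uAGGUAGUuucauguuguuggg
miR-196b-5p: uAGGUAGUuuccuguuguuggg
miR-10a-5p: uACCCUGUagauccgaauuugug
miR-10b-5p: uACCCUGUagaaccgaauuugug
The gene of miR-196a-5p lies beside Hoxb9 and, as a further copy, beside Hoxc10; that of miR-196b-5p lies within Hoxa9, that of miR-10a-5p beside Hoxb4 and that of miR-10b-5p within Hoxd4. The row of Mir196b and that of the copy of Mir196a in cluster c had no reads. A match to the miR-196 seed was present in the 3′ untranslated region of 9 of 39 Hox genes (23.1%), against 7.51% of all 21805 protein coding genes with such a region. A gene counted if any of its transcripts held a match. The length of the region and the number of transcripts were not compared between these sets. Hoxa7 had 4 matches, Hoxc8 had 2, and Hoxa4, Hoxa5, Hoxa9, Hoxb1, Hoxb6 and Hoxb7 were among those with 1 each.

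The most complementary stretch of any Hox message lay in Hoxb8, which miR-196 is known to cleave in the mouse embryo. The stretches are written 5′ to 3′ with bases complementary to miR-196a-5p (A with U, G with C) in capitals. That of the next gene, Hoxd8, is given for comparison.
Hoxb8 stretch: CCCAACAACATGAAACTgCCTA
Hoxd8 stretch: CtCAACAACATaAActTcCtaA
In Hoxb8, 21 of 22 bases are complementary to the microRNA, and the other is a g opposite a u. In Hoxd8, 15 of 22 are complementary, and all other Hox genes had at most 14. A g opposite a u was not counted as complementary in any gene. In P. gingivalis replicate 6, where the row of Mir196a-1 held most of its reads, Hoxb8 stood at 7.59 counts per kilobase of exon beside 63.1 for Hoxb7 and 78.4 for Hoxb9. Over the other 11 libraries the medians were 0.819 for Hoxb8, 11.6 for Hoxb7 and 2.81 for Hoxb9. Hoxb8 thus lay below Hoxb7 in either case, and a link to the microRNA was not tested.

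No partner or regulator of the Hox genes passed the test between the groups. Limma called 0 of 13 tested genes of the TALE and cofactor list, of which 6 differences were positive and 7 negative with a median of -0.03. Pbx2 averaged 239 ± 28.8 counts in P. gingivalis libraries and 265 ± 13.3 in PBS libraries, a log2 difference of -0.16 (SE 0.09). Meis2 averaged 126 in P. gingivalis libraries and 145 in PBS libraries, a difference of -0.30 (SE 0.25). Of the 13, 7 were highest in P. gingivalis replicate 6, beside 18.3% of all genes tested, among them Meis1 at 306 counts, against 82.3 to 183 in the other libraries, and Meis2 at 231, against 61.5 to 194.

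The caudal and other regional factors gave 0 calls among 13 tested, with 5 positive and 8 negative differences and a median of -0.06. The ParaHox genes Gsx1 and Gsx2 had no reads. Cdx2 averaged 1010.0 ± 250 counts in P. gingivalis libraries and 1177 ± 66.4 in PBS libraries, a difference of -0.25 (SE 0.13), and was lowest in P. gingivalis replicate 6 at 760.2. Cdx1 was at 471 in that library, inside the range of 394 to 617 in the others. Onecut2, a factor of the upper small intestine, had 697, 18.1, 5.48, 11.96, 339 and 3.48 counts in P. gingivalis replicates 1 to 6, against 2.86, 8.30, 2.84, 14.4, 10.9 and 114 in PBS replicates 1 to 6. Its 3 high values fell in the 3 libraries with little Fabp6, where the summed level of paralog groups 9 to 13 was lowest.

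Chromatin and retinoic acid genes gave the same picture. None of 23 Polycomb and trithorax genes was called, with 15 positive and 8 negative differences and a median of 0.05. Suz12, a core subunit of the complex that marks silent Hox genes, averaged 726 counts in P. gingivalis libraries and 625 in PBS libraries, a difference of 0.21 (SE 0.08; limma, unadjusted p = 0.0145, adjusted p = 0.992). Kdm6b, a demethylase that removes that mark, averaged 398 counts in P. gingivalis libraries and 247 in PBS libraries, a difference of 0.60 (SE 0.32), and did not pass. Of 13 tested retinoic acid genes none was called, with 8 positive and 5 negative differences and a median of 0.10. Rdh10, which makes retinal, averaged 399 counts in P. gingivalis libraries and 343 in PBS libraries, a difference of 0.22 (SE 0.11), and Rxrb, a receptor partner, differed by 0.10 (SE 0.09).

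Some lists of the gut wall were also high in P. gingivalis replicate 6, by less than the summed Hox genes of cluster b, and others were not. All 12 smooth muscle genes were highest there, beside 18.3% of all genes tested, with a summed level of 43530, which is 1.25 times that of the next library. The fibroblast list reached 1.21 times the next library, the list for interstitial cells of Cajal 1.33 times and the enteric neuron list 1.21 times. The endothelial list was at 0.92 times the highest other library, the fat cell list at 0.34 times and the mesothelial list at 0.30 times. The epithelial list summed to 69640 in that library, which is 0.54 times the highest other library, and the glial list, led by Erbb3, which epithelium also expresses, reached 0.46 times it. The large intestine list summed to 1865 counts in that library, within the range of 1537 to 2245 in the other libraries. Averaged over its 7 genes as log2(normalized count + 1), however, it was at 5.59 in that library, above the 3.66 to 4.17 of the other 11. Cluster b as a whole was 3.45 times the next library, and 2.76 times when Hoxb9 was left out. The sums of clusters d, c and a were at 1.89, 1.10 and 0.89 times the highest other library. The part of these tissues in the Hox values was not tested.

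Promoters are shown for 3 Hox genes, because Hoxb8 and Hoxa7 each hold the CDX core at 2 places, as Hoxd4 also does, and Hoxa9 had the largest ratio in P. gingivalis replicate 6. The motif searched was TTTATG, the core bound by Cdx factors, on both strands; where the other strand carries it, the letters read CATAAA. Each line gives the 250 bases before the RefSeq start on GRCm38.p6, 5′ to 3′ along the gene, with the motif in capitals.
Hoxb8, chr11:96281655-96281904, forward strand: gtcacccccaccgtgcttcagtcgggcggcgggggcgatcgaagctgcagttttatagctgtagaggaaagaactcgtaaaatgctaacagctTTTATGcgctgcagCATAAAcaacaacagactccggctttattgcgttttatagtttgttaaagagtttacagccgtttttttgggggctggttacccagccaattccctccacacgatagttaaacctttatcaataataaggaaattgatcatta
Hoxa7, chr6:52218574-52218823, reverse strand: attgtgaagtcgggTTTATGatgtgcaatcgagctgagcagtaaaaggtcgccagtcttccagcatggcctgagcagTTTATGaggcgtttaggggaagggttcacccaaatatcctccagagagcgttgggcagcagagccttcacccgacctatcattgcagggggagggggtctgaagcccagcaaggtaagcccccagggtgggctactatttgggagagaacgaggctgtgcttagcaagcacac
Hoxa9, chr6:52227371-52227620, reverse strand: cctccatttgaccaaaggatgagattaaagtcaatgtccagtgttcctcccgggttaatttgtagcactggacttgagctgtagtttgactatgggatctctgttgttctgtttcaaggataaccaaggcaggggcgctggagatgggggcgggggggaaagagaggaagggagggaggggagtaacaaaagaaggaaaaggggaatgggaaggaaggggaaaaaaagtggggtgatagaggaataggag
Windows of 300 bases, 250 before and 50 after the start, were available for 22 of the 39 genes as 24 starts. TTTATG was present in 5 of these 24 (20.8%), against 11.9% of 32851 windows of all genes, and the 5 belong to Hoxa7, Hoxb8, Hoxd3, Hoxd4 and Hoxd11. AGGTCA, the binding core of retinoic acid receptors, was in 7 of 24 (29.2%), against 16.3% of all windows, and TGATNNAT, a joint HOX and PBX core, was in 4 (16.7%), against 8.85%. Both strands were read for each motif. Hox windows held a median of 14.5 CG pairs, against 7 over all windows, so base composition differs between the compared sets. A match is a description of letters and not of binding. Of the genes with the CDX core, Hoxb8 was at 4.18 times the highest other library in replicate 6, Hoxd4 at 1.13 times, Hoxa7 at 0.783 times and Hoxd3 at 0.459 times, and Hoxd11 had no reads, so they did not share a direction. Hoxb3, Hoxb5, Hoxb6, Hoxb7 and Hoxb9, the tested genes at least 2 times the next library there, had no window. The motif was thus not searched in them, and a link to the values of replicate 6 was not tested.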

How the data were processed

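Polyadenylated RNA was sequenced after preparation with an Illumina TruSeq kit, per the labels' protocols. Tools named in the submitters' processing notes are FastQC, HISAT2, Cufflinks and DESeq2, with build GRCm38 (mm10). Their roles and versions, the annotation and the strand setting were not given in the sources used here. The deposited table holds a normalized signal: gene counts divided by a size factor per library, per the file's name and values. Whole reads were recovered for 100% of values within 0.001 reads, and the test on those reads is given beside the main one. No library was a copy of another, as chi-square over degrees of freedom was at least 7.12 for any pair. A total of 27 names had been turned into dates.

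The 2 groups of 6 entered a limma fit (3.58.1, R 4.3.3) of log2(normalized count + 1) with a trended variance, for genes with a mean of at least 10, two-sided, with Benjamini-Hochberg adjustment at 0.05 over all genes. The scale understates changes of weak genes. The steps were tested on simulated data. Alternatives were other pseudocounts, filters and scalings, edgeR 4.0.16, DESeq2 1.42.0, sample weights, a replicate block, libraries left out in turn and, added after seeing the data, the 3 libraries with low Fabp6 and those 3 with P. gingivalis replicate 6. No pairing of samples by the numbers in the titles was seen. Hox genes with reads are named, apart from an item not reported here; of each other list, the 2 genes with the smallest p. The Hox members and the lists were chosen with earlier results of these data known. Positions, exon lengths and overlaps come from GENCODE M21 on GRCm38, and sequences from RefSeq. Counting intervals are exact, at 95%, and cover counting error only.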

Additional observations from a re-analysis of the deposited data

Results flagged for a closer look

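Of 40 groups of 6 values looked at, which were the tested Hox genes and sums in each treatment group, 5 had a library far from the rest by the size of its gap to the next value on the log2(normalized count + 1) scale. Chance gives about 1 in 20 for separate groups, but these are not separate: the 2 sums below hold Hoxb6 and Hoxb7, and all 5 point to the same library, P. gingivalis replicate 6. It stood at 88.7 normalized counts of Hoxb3, against 15.4 to 26.5 in P. gingivalis replicates 1 to 5. It stood at 177 counts of Hoxb6, against 5.04 to 20.3, and at 97.4 counts of Hoxb7, against 10.1 to 21.9. The sum of all 39 Hox genes was 1141 in it, against 262 to 433, and the sum of paralog groups 5 to 8 was 635, against 152 to 251. The same library was at 498 for Car1 and at 0 for Gata4. The part of gut position, muscle content or treatment in these values was not tested, and with 1 such library they cannot be told apart.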

How the results depend on the processing

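Under every alternative that gave a value, 0 Hox genes were called. No Hox gene reached a mean of at least 50, so that filter gave none. Over 381 pairs of a tested Hox gene and an alternative, 338 kept the sign of the difference and 43 turned it. The sign held throughout for Hoxa3, Hoxc4, Hoxc5, Hoxc6, Hoxc8 and Hoxd8. Hoxb5 turned to 0.059 with a pseudocount of 5, 0.0021 with upper-quartile rescaling, 0.47 in edgeR and 0.45 in DESeq2. Hoxb6 turned to 0.66 in edgeR and 0.62 in DESeq2, and Hoxb3 to -0.022 with trimmed-mean rescaling. With sample weights, Hoxb3 was at -0.16, Hoxb4 at -0.0090, Hoxb9 at -0.078 and Hoxd4 at -0.16. Without the 3 libraries with low Fabp6, Hoxa7 was at 0.063, Hoxb5 at 0.20 and Hoxb6 at 0.0068. Without these and P. gingivalis replicate 6, Hoxa7 was at 0.015, Hoxb3 at -0.35, Hoxb4 at -0.38, Hoxb7 at -0.011, Hoxb9 at -0.081 and Hoxd4 at -0.066. Leaving out 1 library at a time, differences ran from -0.25 to 0.10 for Hoxa5, -0.30 to 0.095 for Hoxb2, -0.34 to 0.15 for Hoxb3, -0.18 to 0.29 for Hoxb4, -0.077 to 0.27 for Hoxb5, -0.13 to 0.50 for Hoxb7, -0.27 to 0.92 for Hoxb9 and -0.10 to 0.25 for Hoxd4. The ranges of Hoxb5 and Hoxb9 hold no value without P. gingivalis replicate 6, because both then fell below the mean of 10. Without that library the P. gingivalis mean was 8.53 counts for Hoxb5 and 5.78 for Hoxb9, against 10.6 and 11.2 in PBS libraries. The cause of the turns of sign was not tested. Over all genes limma called 0, and the count was 1 with a pseudocount of 5, 33 in DESeq2, 20 with sample weights, 1 without the 3 libraries and 9 without the 4. It ran from 0 to 53 when 1 library was left out, with 53 without P. gingivalis replicate 6. With the replicate number as a block, 0 genes and 0 Hox genes were called. Correlations of same-numbered samples ran from -0.54 to 0.08, so no pairing by number was seen. Large differences between libraries can mask a pairing in these correlations, so they cannot exclude it. Trimmed-mean rescaling moved the median difference of all genes by -0.03. Depth limits the rear genes, most of which had fewer than 5 reads.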
